A study of Mus musculus with 4 samples.

Results

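The genes that encode the proteins of the cytosolic ribosome were followed through single-cell RNA sequencing of mouse epidermis after loss of ΔNp63. Members were all genes whose symbol begins with Rpl or Rps and a digit, without the Rps6k kinases and without symbols marked as pseudogenes. The rule found 82 of 32285 genes, 49 with large subunit names (Rpl) and 33 with small subunit names (Rps). It used names only and no measured value. By their names, 73 were canonical ribosomal proteins and 9 were paralogues of these or other genes that the prefix also catches. At each time point 80 members reached 50 UMIs over both libraries, and Rpl10l and Rpl3l did not. UMIs are unique molecular identifiers, short tags by which each captured RNA molecule is counted once.

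ΔNp63 is the form of the transcription factor p63 that basal keratinocytes express. Control mice were DNp63fl/fl, with floxed alleles and no Cre, and experimental mice were DNp63fl/fl;K14-CreT2, with a tamoxifen-dependent Cre recombinase driven by the keratin 14 (K14) promoter of basal keratinocytes. All mice, controls included, were given tamoxifen at 200 mg/kg daily for 5 days, were aged 2 to 17 months and included males and females, and cells were taken 1 day or 1 week after ablation. The 4 groups have 1 library each, which leaves the differences without a replicate check: no test was made, and the intervals cover counting error only. The labels do not say how many animals, or which ages, sexes or trypsin temperature (4 or 37 °C), went into a library. A 3′ kit was used at 1 day and a 5′ kit at 1 week, so time and kit cannot be told apart, and a ratio was taken only within a time point.

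Ribosomal proteins and ribosomal RNA assemble in the nucleolus into a large subunit, which joins amino acids, and a small subunit, which reads the messenger RNA. Their messenger RNAs are short and abundant and begin with a run of pyrimidines, the 5′ TOP motif, through which the cell adjusts their translation together when nutrients or growth signals change. In epidermis, growing basal keratinocytes translate for division, whereas granular cells dismantle their organelles as they become the cornified layer.

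Start-site windows from RefSeq show annotated starts with and without a long pyrimidine run, for members on which the results below turn. Each line gives 15 bases before to 15 after the annotated start on build GRCm38.p6, 5′ to 3′ on the gene's strand, with the longest pyrimidine run near the start in capitals. Rps27, Rpl38 and Rps28 were among the members lowest at 1 week, Rpl7a, Rps6 and Rpl10a were near no difference there, and Rps2 was higher.
Rps27 (chr3:90213634-90213663, minus strand): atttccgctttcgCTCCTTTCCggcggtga
Rpl38 (chr11:114668565-114668594, plus strand): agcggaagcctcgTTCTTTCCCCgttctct
Rps28 (chr17:33824548-33824577, minus strand): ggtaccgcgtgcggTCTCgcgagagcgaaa
Rpl7a (chr2:26910792-26910821, plus strand): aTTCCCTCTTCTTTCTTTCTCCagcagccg
Rps6 (chr4:86857353-86857382, minus strand): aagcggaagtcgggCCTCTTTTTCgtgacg
Rpl10a (chr17:28328550-28328579, plus strand): gctctatttgagCgcatgcgcaaagcgctc
Rps2 (chr17:24720048-24720077, plus strand): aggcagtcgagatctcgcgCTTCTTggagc
The run was 9 bases in Rps27, 10 in Rpl38 and 4 in Rps28, then 21 in Rpl7a, 10 in Rps6 and 1 in Rpl10a, with 6 in Rps2, so neither group was uniform. Windows were found for 63 of the 82 members (75 windows). A run of at least 8 pyrimidines stood in 23 of these, or 30.7%, against 9.38% of all 32851 promoter windows of the same length. The median longest run was 4 bases in member windows and 3 bases in all windows, so most annotated member starts showed no long run. CTTTCC or CTTTTC stood near the start, on the gene's strand, in 12% of member windows and 0.822% of all. A match is a description of letters and not of a start site in these cells.

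A second set of sequences shows why the values of Rps27 and Rps27rt should be read together, with Rps27l for comparison. The first 30 coding bases of Rps27, of its copy Rps27rt and of its paralogue Rps27l are given from GENCODE M21 on GRCm38. Bases that differ from Rps27 are in capitals, and the positions are those of the whole genes.
Rps27 (chr3:90212522-90213651, minus strand): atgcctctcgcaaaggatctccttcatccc
Rps27rt (chr9:114982366-114982739, minus strand): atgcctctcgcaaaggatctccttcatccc
Rps27l (chr9:66946086-66949516, plus strand): atgccCctGgcTaGAgatctGTtAcaCccT
The whole coding sequence of Rps27rt was 100% identical to that of Rps27, whereas Rps27l was 76.7% identical and differed at 10 of these 30 bases. How reads from Rps27 and Rps27rt were divided is not given in the sources used here, so both values are uncertain. The same holds for members with close processed pseudogenes elsewhere in the genome.

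Counts of Trp63, the gene that encodes p63, checked the labels: in keratinocytes Trp63 was at 401 CPM (UMIs scaled to 1000000 per class and library) in the 1-day control against 126 CPM in the 1-day ablated library, with 431 against 139 CPM at 1 week. Gene counts do not separate the ΔNp63 form from others. The libraries held 68191870 to 179736563 UMIs over 18413 to 33552 barcodes. The members' share of all UMIs was 22.3% in the 1-day control, 17.5% in the 1-day ablated, 17.9% in the 1-week control against 13.0% in the 1-week ablated library. The 2 libraries of a time point shared 299 barcodes at 1 day and 661 at 1 week. Libraries of different time points shared 9 to 18, but they came from different kits, so these numbers give no baseline. The labelled cell type was keratinocytes and others, and the clusters counted here as keratinocytes held 18077 control and 13856 ablated cells from the 1-day pair and 7242 and 4619 from the 1-week pair. A cluster led by Krt8, the keratin of simple epithelia, was kept apart although it was rich in keratin, with 2 control and 4680 ablated cells at 1 day. With it the 1-day difference below was −5.36 points. A 1-week cluster of 434 ablated and 0 control cells, also led by Krt8, fell in no class and was counted as keratinocytes, with a member share of 9.29%. Without it, an alternative chosen after seeing the data, the 1-week difference was −4.40 points and the median log2 ratio −0.46. Keratinocyte clusters were divided by marker genes into basal-like, suprabasal-like, granular-like, hair follicle-like, sebaceous-like and cycling cells, with some clusters left without a class. Member genes were kept out of the clustering. The median keratinocyte gave 4650 UMIs in the 1-day control, 3905 in the 1-day ablated, 6193 in the 1-week control against 4913 in the 1-week ablated library.

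In keratinocytes the ribosomal protein genes took a smaller part of the RNA in both ablated libraries. At 1 day they held 23.0% of control and 17.9% of ablated UMIs, a difference of −5.08 percentage points (log2 share ratio −0.36, 95% interval −0.361 to −0.359). At 1 week they held 18.2% and 13.1%, a difference of −5.09 points (log2 −0.47, −0.476 to −0.473). Large subunit members went from 12.4% to 9.77% and small subunit members from 10.6% to 8.14% at 1 day, and from 9.73% to 7.17% and from 8.43% to 5.91% at 1 week, so both subunits were lower. Per cell, the median share was 23.7% (interquartile range 19.8 to 27.2%) in the 1-day control against 17.3% (13.7 to 22.3%) in the 1-day ablated library. At 1 week it was 18.5% (16.4 to 21.3%) and 12.8% (10.4 to 16.3%). These interquartile ranges overlapped at 1 day and did not at 1 week. The median keratinocyte held 1131 member UMIs in control against 721 in ablated cells at 1 day, with 1149 against 631 at 1 week.

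The 2 libraries of a time point held different mixtures of keratinocytes, and the difference was smaller when classes or clusters were weighted as in the control. With each class weighted as in the control library it was −3.35 points at 1 day and −3.78 at 1 week. The 1-week class weights rest in part on 15 ablated basal-like cells. Of 256 ablated suprabasal-like cells, 247 lay in a cluster without control cells, so the mixture within classes was not held fixed. A second alternative, chosen after seeing the data, weighted each cluster of at least 50 cells in both libraries as in the control. Under it the difference was −1.71 points at 1 day and −2.91 at 1 week. At 1 week 8 keratinocyte clusters met that limit. They were hair follicle-like, cycling, sebaceous-like or without a class, and none was basal-like, suprabasal-like or granular-like. Granular markers summed to 403 CPM in control and 3322 CPM in ablated keratinocytes at 1 day, and the 1-week sums were 993 and 8146 CPM, with all 10 markers higher at both. Without the granular-like clusters the share difference was −4.70 points at 1 day and −4.46 at 1 week. Basal markers summed to 11599 and 5960 CPM at 1 day, and the 1-week sums were 21595 and 16392 CPM. Other markers moved in the same sums. Those of simple epithelia and Merkel cells summed to 1.90 CPM in control against 280 CPM in ablated keratinocytes of the 1-day pair, then 1.53 against 437 CPM in the 1-week pair, with 7 of 9 higher in each. Langerhans or dendritic markers went from 150 to 269 CPM at 1 day, with all 8 higher, and from 290 to 299 CPM at 1 week, with 3 higher. Erythroid markers went from 15.7 to 35.4 CPM at 1 day, with 4 of 5 higher, and from 131 to 20.97 CPM at 1 week, with none higher. T cell markers went from 65.6 to 38.1 CPM at 1 day, though 7 of 9 were higher. At 1 week they went from 65.2 to 35.4 CPM, with none higher. The part of these markers in the result was not tested beyond the weighted values.

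Cells of similar depth were compared as well. Over 5 bins from 2000 UMIs upward, the share in keratinocytes differed by −3.62, −5.46, −6.70, −4.80 and −3.46 points at 1 day and by −6.21, −5.76, −3.95, −4.83 and −3.83 points at 1 week. The ablated library was lower in every one of these bins. The mitochondrial genome's share of keratinocyte UMIs was 4.18% and 4.44% at 1 day and 1.56% and 1.81% at 1 week.

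**Figure D1:**
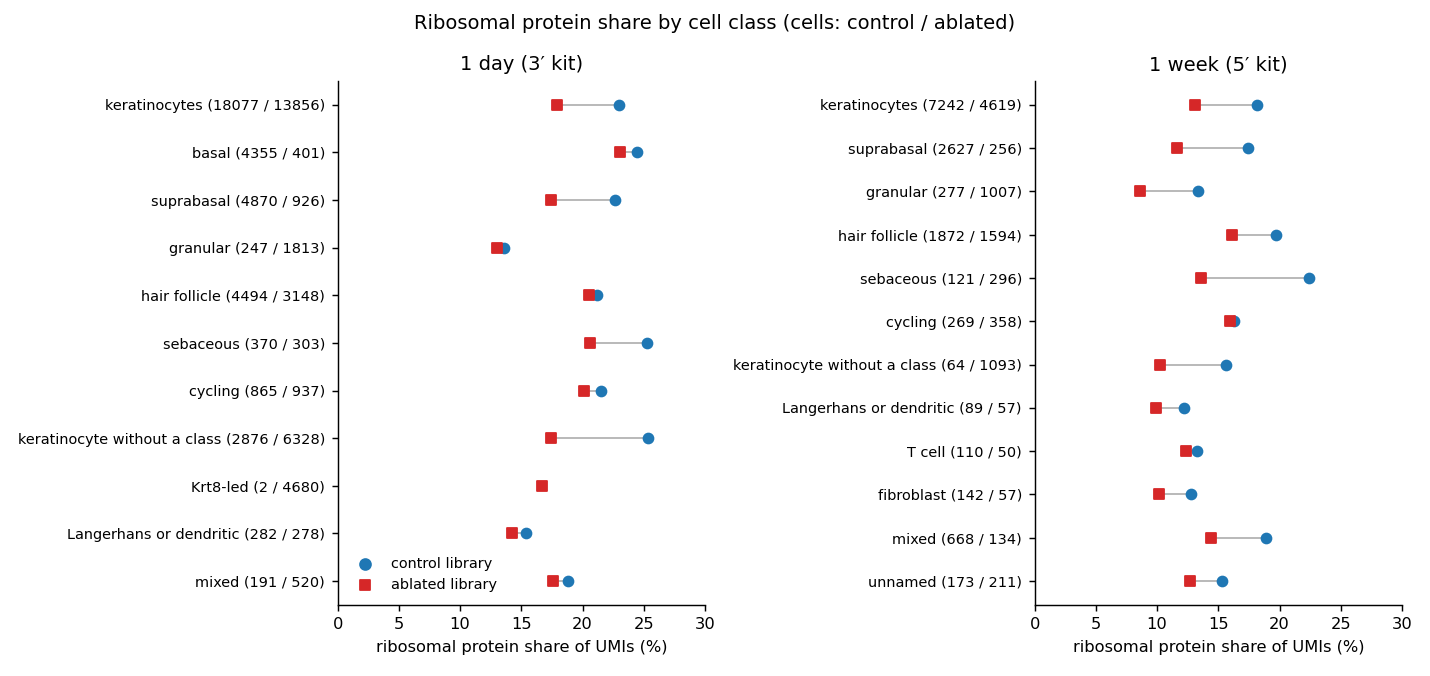
Share of UMIs from ribosomal protein genes (%, horizontal axis) by cell class at 1 day (left) and 1 week (right). Circles are the control and squares the ablated library, 1 library each, with cell numbers beside the class names, and every class drawn with both libraries lies lower in the ablated one.

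Cell classes were set side by side next. At 1 day basal-like cells, where ΔNp63 is made, held 24.5% in control and 23.1% in ablated cells (4355 and 401 cells). Suprabasal-like cells, the layer above, held 22.7% and 17.4% (4870 and 926 cells). Granular-like cells, the last living layer, held 13.5% and 13.0%, hair follicle-like cells 21.2% and 20.5%, and cycling cells 21.5% and 20.1%. Sebaceous-like cells, which make sebum, held 25.3% and 20.6%, and keratinocytes without a class held 25.4% and 17.4%. All 9 classes with at least 50 cells in each library were lower in the ablated one. They include Langerhans or dendritic-like cells and clusters of mixed markers (18.8% and 17.6%). The Krt8-led cluster held 16.6% in its 4680 ablated cells and had 2 control cells, so it has no counterpart.

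Several 1-day classes mix clusters that the libraries filled in different proportions, so class differences cannot be ranked. The granular-like class differed by −0.56 points, but its clusters differed more, one by −4.28 points (68 control and 1330 ablated cells) and the other by −2.01 points (179 and 483 cells). The 3 suprabasal-like clusters differed by −4.23, −1.69 and −3.12 points, all less than their class. Of the ablated keratinocytes without a class, 2739 and 1528 lay in clusters with 2 and 0 control cells. In the 4 clusters without a class that both libraries filled, the differences were −0.75, 1.73, −0.89 and −8.04 points.

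At 1 week the ablated library was lower in all 11 classes with at least 50 cells in each. They include keratinocytes without a class (15.6% in 64 control and 10.3% in 1093 ablated cells). Clusters of mixed markers (18.9% and 14.4%) and clusters given no name (15.3% and 12.7%) are counted too and are not single cell types. Suprabasal-like cells held 17.4% in control and 11.7% in ablated cells, and granular-like cells 13.3% and 8.60%. Hair follicle-like cells held 19.7% and 16.2%, and sebaceous-like cells 22.4% and 13.6%. Cycling cells held 16.3% and 15.9%. Only 15 ablated basal-like cells remained, at 17.4% against 18.9% in 2012 control cells.

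Most of these 1-week class values set different clusters side by side. Of the suprabasal-like ablated cells, 247 lay in a cluster without control cells, and no suprabasal-like cluster had more than 5 ablated cells beside control cells. The leading genes of that cluster, from Krt6b and Sprr1b on, held neither Krt1 nor Krt10. Its name rests on the mean over the suprabasal markers and is uncertain. Granular-like ablated cells lay mainly in clusters of 325, 249 and 181 cells without control cells, whereas 231 control cells lay in a cluster without ablated cells. The granular-like cluster with 43 control and 182 ablated cells went from 8.39% to 4.20%. Among sebaceous-like cells, the cluster with 114 control and 52 ablated cells went from 23.7% to 17.4%, and the others held almost only ablated cells. Cycling cells fell into 2 clusters held in opposite proportions, and each was lower: 19.0% against 16.6% (127 and 316 cells), and 13.3% against 10.9% (142 and 42 cells).

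Clusters named from markers of other cell types were small. Langerhans or dendritic-like cells, the antigen-presenting cells of the epidermis, held 12.2% and 9.91% at 1 week (89 and 57 cells), and fibroblast-like cells 12.7% and 10.2% (142 and 57 cells). T cell-like cells held 13.2% and 12.3% (110 and 50 cells). From 4000 UMIs upward the T cell-like difference of −0.91 points became 0.49, and 10 of the 11 classes were lower. One T cell-like cluster, at 8.46% and 8.07%, had keratin genes at 240 CPM, while the other, at 19.3% and 16.9%, had them at 4830 CPM, with 13 keratinocyte markers at 2 or more times their level in the first. The fibroblast-like cluster had keratin genes at 2390 CPM and 11 such markers, and the Langerhans or dendritic-like cluster 265 CPM and 1 marker. The part of keratinocyte RNA in these values was not tested. Langerhans or dendritic-like cells were at 15.4% and 14.2% at 1 day.

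Within single clusters the direction was less uniform at 1 day than at 1 week. Of 21 clusters with at least 50 cells in both 1-day libraries, 18 were lower in the ablated library and 3 were higher, and the differences ran from 1.73 to −8.04 points with a median of −1.38. Of 10 such clusters at 1 week, all were lower, from −1.56 to −7.07 points with a median of −2.49.

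**Figure D2:**
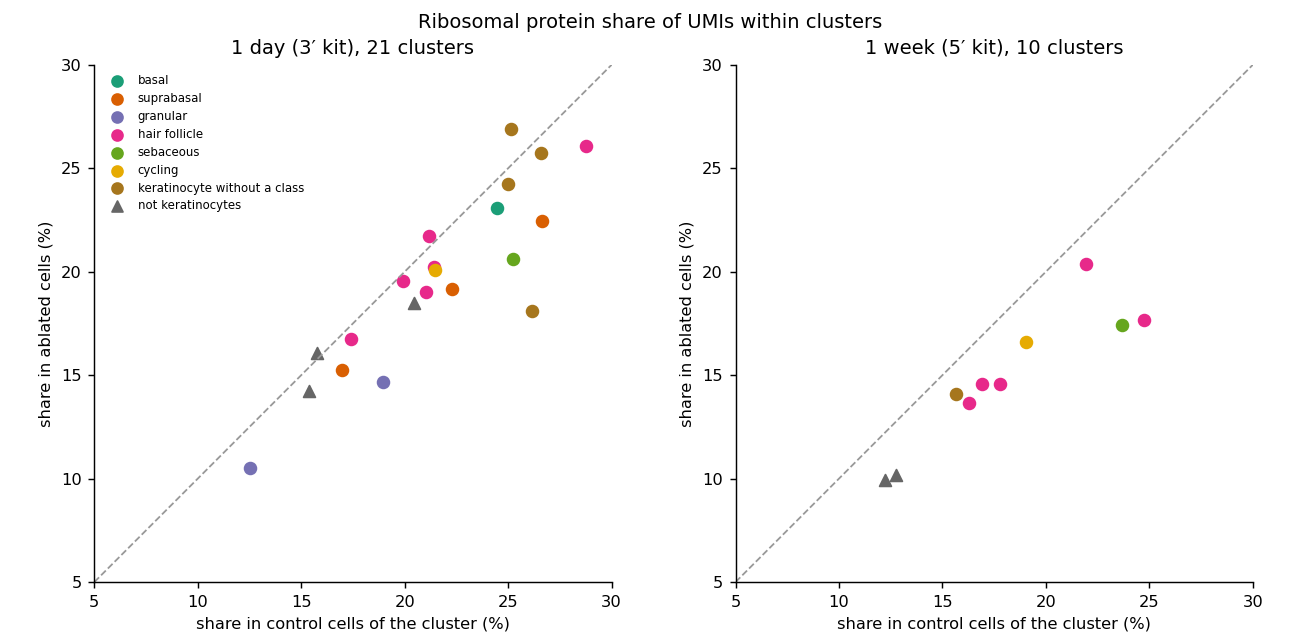
Ribosomal protein share of UMIs in each cluster with at least 50 cells in both libraries, control (horizontal, %) against ablated (vertical, %), with colours for keratinocyte classes and triangles for other clusters. Points below the dashed line of equality are lower in the ablated library: 18 of 21 at 1 day and 10 of 10 at 1 week.

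Member by member, nearly every gene was lower in the summed ablated keratinocytes, which mix classes in other proportions than the control. Of the 79 members with enough UMIs for a ratio in keratinocytes, 77 were lower and 2 higher at 1 day, where 49.4% of all 13206 genes were lower. The median member had a log2 ratio of CPM of −0.36 (lowest −0.56, highest 0.23), against 0.00 over all genes. At 1 week again 77 were lower and 2 higher, where 43.1% of 13273 genes were lower, and the median member was at −0.54 (lowest −1.69, highest 0.17), against 0.08 over all genes. With clusters weighted as in the control, the median was −0.12 at 1 day. It was −0.32 at 1 week, where no basal-like, suprabasal-like or granular-like cluster entered. The number of members lower at 1 day depended on the class. It was 60 of 79 in basal-like (44.5% of all genes), 45 in granular-like (42.1%), 58 in cycling (42.9%) and 55 in hair follicle-like cells. It was 77 in suprabasal-like cells (48.9%), 74 in sebaceous-like cells (43.2%) and 77 in keratinocytes without a class (64.1%). The 1-day values in all keratinocytes lay close together, with quartiles of −0.42 and −0.26, and the 1-week values were more spread, with quartiles of −0.86 and −0.29. A log2 ratio of −0.5 or below was met by 2 members at 1 day (9.17% of all genes) and by 42 at 1 week (12.9% of all genes). The 1-day count depends on the scaling, with 12 under TMM (trimmed mean of M values) scaling, 22 relative to UMIs outside the members and 10 from 4000 UMIs, whereas the 1-week count stayed between 40 and 47. A ratio of −1 or below was met by no member at 1 day (2.29% of all genes) and by 13 at 1 week (4.67%). The median was −0.36 for large and −0.39 for small subunit members at 1 day, and −0.47 and −0.60 at 1 week. Among these 79 members 75 were lower at both times, as were 28.6% of the 12668 genes with enough UMIs at both, and no member was higher at both. The 2 time points do not share libraries.

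**Figure D3:**
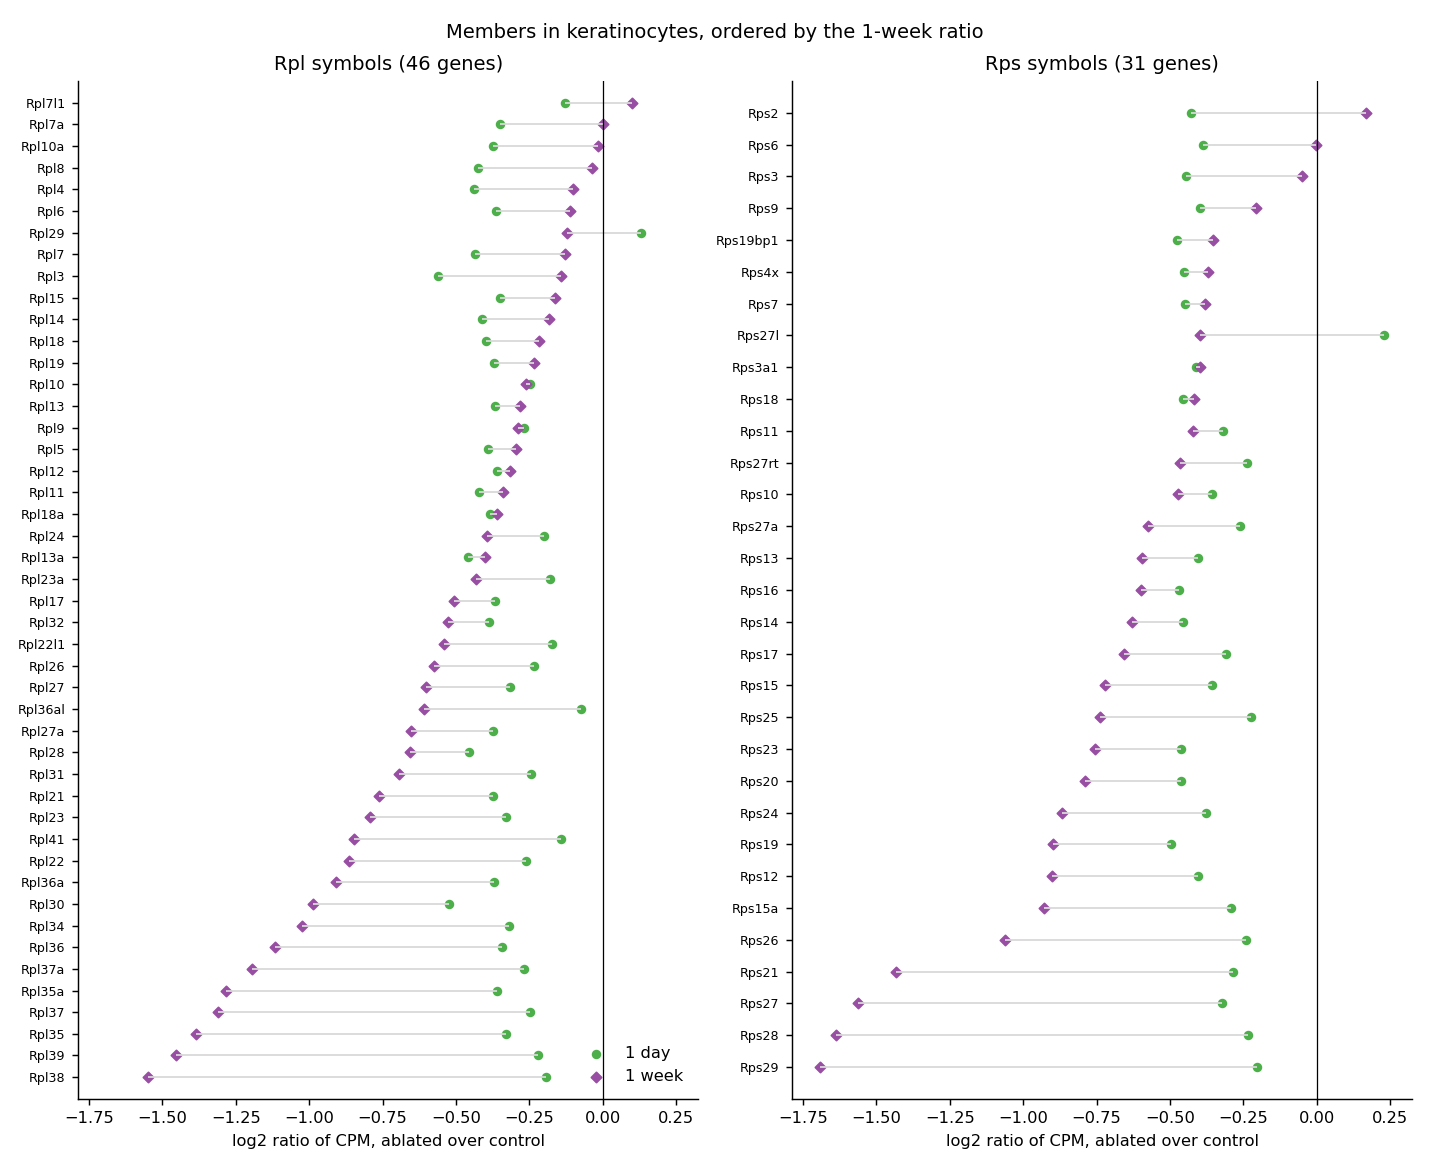
Log2 ratio of CPM, ablated over control, in keratinocytes for large (left) and small (right) subunit members, as circles at 1 day and diamonds at 1 week, ordered by the 1-week value, 1 library per group. The 1-day circles lie between −0.56 and 0.23, whereas the 1-week diamonds reach −1.69.

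Of the members that gave the most UMIs, those listed here were lower by similar amounts at 1 day and by different amounts at 1 week, and Rps2, one of the most abundant at 1 week, was higher there (0.17). UMIs count 1 end of each molecule, so CPM values were not divided by gene length and are compared only within a gene. Rpl13, a large subunit protein, was at 8275 CPM in the 1-day control against 6419 CPM in the 1-day ablated library (log2 −0.37), and at 7065 and 5814 CPM at 1 week (−0.28). Rps24, whose mutation in people causes Diamond-Blackfan anaemia, was at 5751 and 4427 CPM (−0.38) and at 4883 and 2677 CPM (−0.87). Rps3a1 was at 5156 and 3880 CPM (−0.41) and at 4948 and 3755 CPM (−0.40), nearly the same ratio at both times. Rps4x was at 4733 and 3457 CPM (−0.45) and at 5414 and 4188 CPM (−0.37). Rpl23, which can bind the p53 regulator MDM2, was at 5020 and 3994 CPM (−0.33) and at 3643 and 2105 CPM (−0.79), and Rps12 at 4953 and 3739 CPM (−0.41) and at 3426 and 1835 CPM (−0.90). Rps16 had ratios of −0.47 and −0.60.

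The lowest members at 1 day were 2 large subunit proteins and 1 small one. Rpl3, which lies near the peptidyl transferase centre, was at 2245 CPM in control and 1523 CPM in ablated cells (log2 −0.56, 95% interval −0.57 to −0.55). Rpl30 was at 3105 and 2160 CPM (−0.52), and Rps19, the first gene found mutated in Diamond-Blackfan anaemia, at 3960 and 2808 CPM (−0.50). At 1 week, with the other kit, Rpl3 was at 2151 and 1947 CPM (−0.14), nearer to 0 than the median member there (−0.54). Rpl30 was at 2467 and 1245 CPM (−0.99) and Rps19 at 3237 and 1737 CPM (−0.90). Rps19bp1, which encodes a partner of the S19 protein and not a ribosomal protein, was at 57.3 and 41.2 CPM at 1 day (−0.48), then 41.7 and 32.7 CPM at 1 week (−0.35).

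The 6 lowest members at 1 week were all small proteins. Rps29, a zinc-binding protein of the small subunit's head, was at 434 CPM in control and 134 CPM in ablated cells (log2 −1.69, 95% interval −1.73 to −1.65). Rps28 was at 588 and 189 CPM (−1.64) and Rps27, another zinc-binding small subunit protein, at 837 and 284 CPM (−1.56). Rpl38, which in mouse embryos affects the translation of Hox messenger RNAs, was at 389 and 133 CPM (−1.55). Rpl39, which lines the exit tunnel of the growing chain, was at 1398 and 511 CPM (−1.45), and Rps21 at 679 and 251 CPM (−1.43). At 1 day the same 6 genes were between −0.32 (Rps27) and −0.19 (Rpl38), and Rps29 was at 2847 and 2470 CPM (−0.20).

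At the other end, the members with the highest ratios at 1 week were level or higher, and they were among the longer ones. Not all long members were level. Of 19 members with 600 to under 900 coding bases 17 were below 0, against 606 of 1710 other genes of that length. That count includes members very near 0, which are named below. Rps3a1 (792 bases, −0.40) and Rps4x (789 bases, −0.37) were lower by more. Rps2, near the entry of the messenger RNA channel, was at 4525 CPM in control and 5088 CPM in ablated cells (log2 0.17, 95% interval 0.16 to 0.18), whereas at 1 day it was at 2748 and 2042 CPM (−0.43). Rpl7a was at 1654 and 1653 CPM and Rps6, the target of S6 kinase, at 1559 and 1557 CPM (both −0.00), after −0.35 and −0.39 at 1 day. Rpl10a (−0.02) and Rpl8 (−0.04) were also level at 1 week, after −0.37 and −0.42 at 1 day. In basal-like, suprabasal-like, granular-like, hair follicle-like and cycling cells at 1 week the ratio of Rps2 was 0.49, 0.26, 0.09, 0.14 and 0.76, and in sebaceous-like cells it was −0.17. Members of 600 coding bases or more had medians of 0.20, −0.20, −0.39, 0.05, 0.28 and −0.44 in the same order. The basal-like values rest on 15 ablated cells, and the suprabasal-like and granular-like ones compare mostly different clusters.

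Coding length ordered the members at 1 week. Lengths were those of the principal GENCODE M21 transcript without the stop codon, from 75 bases in Rpl41 to 1257 in Rpl4. Over the 79 members, the Spearman correlation between coding length and the keratinocyte log2 ratio was 0.87 at 1 week and −0.47 at 1 day. These are descriptions over genes of the same 2 libraries, and genes are not independent replicates. The 11 members under 300 bases had a median of −1.43 at 1 week, the 28 from 300 to under 450 bases −0.77, the 19 from 450 to under 600 bases −0.39, the 19 from 600 to under 900 bases −0.16, and Rpl3 and Rpl4, the 2 longest, −0.12. At 1 day the same groups were at −0.23, −0.35, −0.37, −0.39 and −0.50, so the order was the opposite and the spread smaller. Members under 300 bases gave 5.10% of member UMIs in the 1-week control against 3.06% in the 1-week ablated library, and 9.28% and 10.2% at 1 day. Members of 600 bases or more gave 34.0% and 40.9% at 1 week and 29.5% and 28.7% at 1 day. The 1-week correlation with annotated transcript length was 0.46 and with the control CPM, which enters the ratio, 0.26. At 1 day these were −0.42 and −0.52, so there the control CPM ordered the members at least as strongly as coding length (−0.47).

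**Figure D4:**
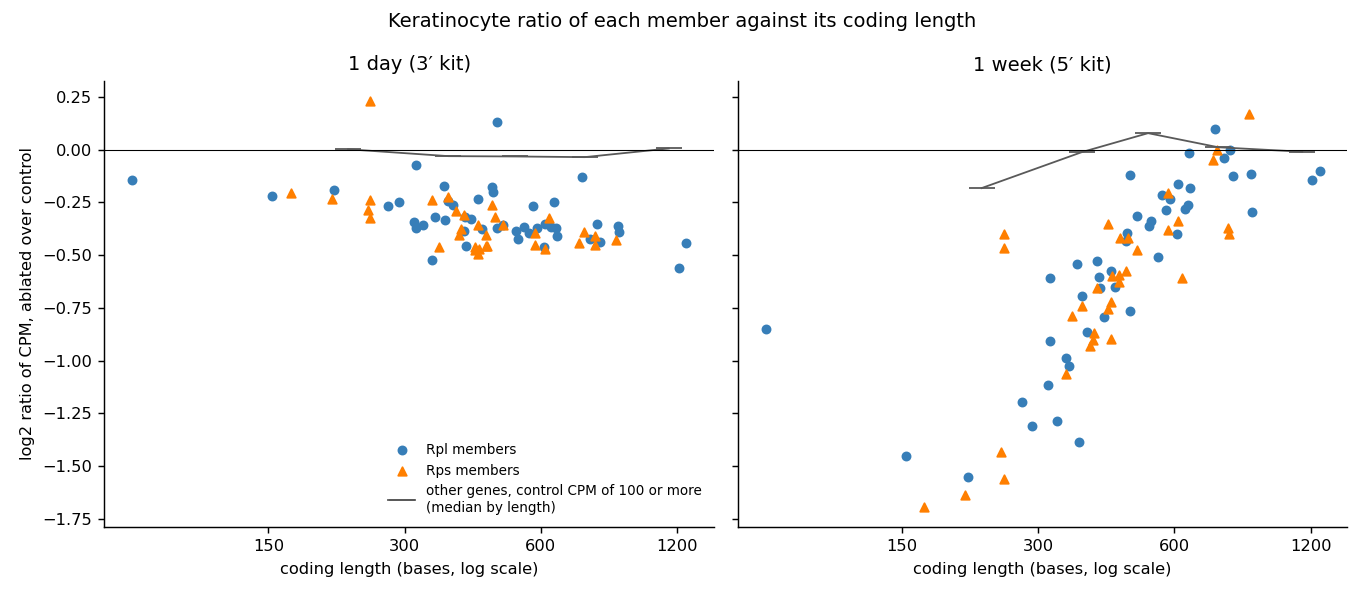
Keratinocyte log2 ratio of CPM, ablated over control (vertical), against coding length in bases (horizontal, log scale) for each Rpl member (circles) and Rps member (triangles), with the median of other genes of at least 100 CPM in the control as a line. At 1 week (right) the values climb from −1.69 in the short Rps29 to 0.17 in the long Rps2, whereas at 1 day (left) they lie between −0.56 and 0.23.

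The same order was present in every cell class examined at 1 week, including those named from markers of other cell types. The Spearman correlation with coding length was 0.89 in hair follicle-like, 0.81 in suprabasal-like, 0.76 in granular-like, 0.79 in sebaceous-like and 0.88 in cycling cells. It was 0.83 in Langerhans or dendritic-like, 0.88 in T cell-like and 0.89 in fibroblast-like cells, each over 76 members. Within the 10 clusters with at least 50 cells in both libraries it ran from 0.83 to 0.91, and at 1 day, within 21 clusters, from −0.62 to −0.23. All classes of a time point come from the same 2 libraries. In hair follicle-like cells at 1 week members under 300 bases had a median of −1.24 and those of 600 bases or more one of 0.05. The values were −0.84 and 0.18 in T cell-like, −1.27 and 0.07 in Langerhans or dendritic-like, −1.21 and −0.08 in fibroblast-like, −1.52 and −0.39 in granular-like and −1.54 and −0.44 in sebaceous-like cells. The short and long groups thus lay about as far apart in the immune-like classes as in the keratinocyte ones, while their common level differed.

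**Figure D5:**
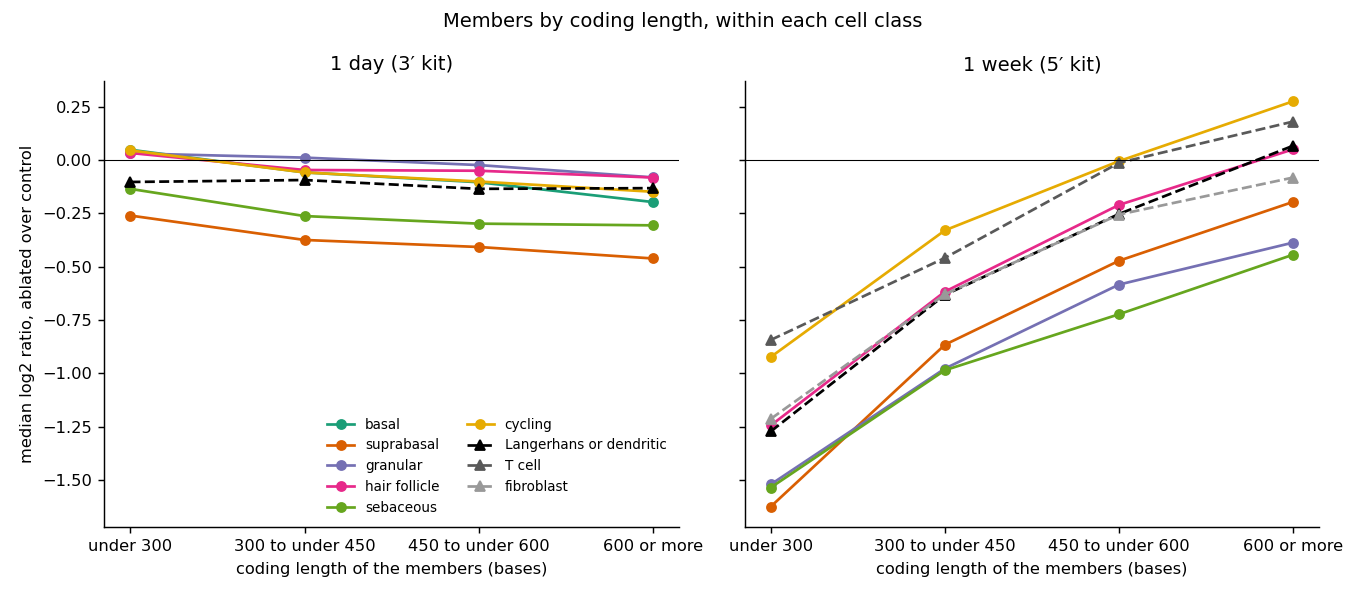
Median log2 ratio of CPM, ablated over control, of members in 4 ranges of coding length (horizontal, bases) within each cell class with at least 50 cells in both libraries, solid lines for keratinocyte classes and dashed for others. At 1 week (right) every line climbs from the shortest to the longest members, for example from −1.24 to 0.05 in hair follicle-like cells, and at 1 day (left) the ends of a line differ by at most 0.25.

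Genes outside the set showed no such order by coding length as a whole. In 1-week keratinocytes their Spearman correlation between coding length and the log2 ratio was −0.10 over 12318 genes and −0.16 over the 1435 genes of at least 100 CPM in the control, opposite in sign to the 0.87 of the members. Over genes of at least 100 CPM it was 0.07 in hair follicle-like and 0.08 in T cell-like cells. Other genes of that level with under 300 coding bases had a 1-week median of −0.18 in keratinocytes (58 of 83 lower). Those of 1500 bases or more were at −0.16 (335 of 483 lower). The ranges between, split at 450, 600 and 900 bases, had medians of −0.01, 0.08, 0.01 and −0.01. All such genes of 600 bases or more together were at −0.07. The median of the short ones was −0.29 in hair follicle-like, −0.39 in T cell-like and −0.42 in fibroblast-like cells, against 0.04, 0.03 and −0.05 for genes of 600 coding bases or more. Sorted by annotated transcript length, in ranges chosen after seeing the data, the shortest ones were low as well. Among other genes of at least 100 CPM in the 1-week control keratinocytes, those with an annotated transcript under 450 bases had a median of −0.71 (11 of 13 lower), and the 7 members of that length −1.55. From 450 to under 600 bases other genes were at −0.40 (27 of 31 lower) and 18 members at −0.64. From 600 to under 900 bases other genes were at 0.05 and 25 members at −0.35. In T cell-like cells the other genes of 450 to under 600 bases were at −0.50 (30 of 30 lower) and the 18 members at −0.46. In hair follicle-like cells at 1 week the other genes under 450 bases were at −0.84 (12 of 12 lower) and the members at −1.33. At 1 day other genes of the first 2 ranges were at 0.04 and 0.03 in keratinocytes. Low values in the 2 shortest ranges at 1 week were therefore not limited to ribosomal protein genes. The cause was not tested.

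Ribosomal proteins that the naming rule misses were set beside the members, in the same libraries. All 7 were lower in keratinocytes at both times, with medians of −0.45 at 1 day and −0.62 at 1 week. Of all genes, 49.4% were lower at 1 day and 43.1% at 1 week. Rplp1, an acidic stalk protein of 342 coding bases, was at 4225 CPM in the 1-week control against 2078 CPM in the 1-week ablated library (−1.02), and at 5786 and 4000 CPM at 1 day (−0.53). Rplp2, the other small stalk protein, had ratios of −0.76 at 1 week and −0.20 at 1 day. Rpsa (885 bases), which also serves as a laminin receptor, was at 4037 and 3871 CPM at 1 week (−0.06), and Rplp0 (951 bases), the base of the stalk, was at −0.25 at 1 week and −0.54 at 1 day. The Spearman correlation with coding length over these 7 genes was 0.77 in keratinocytes and 0.92 in hair follicle-like cells at 1 week. At 1 day it was −0.22 and 0. With 7 genes from the same 2 libraries of a time point, these values are descriptions only.

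The members were also divided by the pyrimidine run. At 1 day 21 members with a run of at least 8 and 39 with a shorter one both had a median of −0.36, and at 1 week the medians were −0.42 and −0.60, with median coding lengths of 456 and 435 bases.

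Paralogues often differed from their parents. Rps27l, which p53 can induce, was at 380 CPM in control and 446 CPM in ablated cells at 1 day (log2 0.23, 95% interval 0.21 to 0.25), the highest ratio of any member, while Rps27 was at 2017 and 1613 CPM (−0.32). At 1 week Rps27l was at 274 and 208 CPM (−0.40), well above the −1.56 of Rps27 at the same coding length of 252 bases. Rps27rt, of that length too, was at 29.4 and 21.3 CPM (−0.46). How reads were divided between Rps27rt and the coding-identical Rps27 is not known, so their difference may not be one of expression. Under 300 bases Rps27l and Rps27rt were the only members with a 1-week ratio above −0.5 among the 11 with enough UMIs. Within classes at 1 day Rps27l was at 0.22 in basal-like, 0.05 in suprabasal-like, −0.10 in granular-like, 0.09 in hair follicle-like, 0.52 in cycling and 0.34 in Langerhans or dendritic-like cells. At 1 week it was at −0.53 in suprabasal-like, −0.57 in granular-like and −0.63 in hair follicle-like cells.

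Rpl36al, 87.7% identical to Rpl36a in its coding bases, was at 868 and 824 CPM at 1 day (−0.07) against 1081 and 837 CPM for Rpl36a (−0.37), and the 1-week ratios were −0.61 and −0.91. Rpl22l1 (69.6% identical to Rpl22), which can replace Rpl22 in the ribosome, was at −0.17 and −0.54 at the 2 times, and Rpl22 at −0.26 and −0.87. Rpl7l1 (57.6% identical to Rpl7), a nucleolar factor, was at 60.3 and 55.2 CPM at 1 day (−0.13), then 45.3 and 48.5 CPM at 1 week (0.10), where Rpl7 was at −0.44 and −0.13. In each of these pairs the paralogue had the higher ratio at both times. Rpl39l, a copy used in the testis, gave 12 and 8 UMIs in keratinocytes at 1 day and 10 and 9 at 1 week, too few for a comparison, and Rpl10l and Rpl3l gave at most 6 UMIs in any keratinocyte sum.

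Rpl29 was the other member above 0 at 1 day. It was at 995 CPM in control and 1090 CPM in the ablated keratinocytes at 1 day (0.13) and at 2192 and 2015 CPM at 1 week (−0.12). Its 1-day ratio was 0.27 in basal-like, −0.01 in suprabasal-like, 0.21 in granular-like, 0.33 in hair follicle-like, 0.38 in cycling and 0.51 in Langerhans or dendritic-like cells. Its 1-week ratio was 0.39 in basal-like cells (413 ablated UMIs), 0.03 in hair follicle-like and 0.22 in cycling cells, and −0.35 and −0.38 in suprabasal-like and granular-like cells.

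Hair follicle-like cells were numerous in all 4 libraries, with 4494 control and 3148 ablated cells at 1 day, then 1872 and 1594. At 1 day 55 of 79 members were lower (47.7% of all genes) with a median of −0.03, which was 0.00 from 4000 UMIs, where the share difference of −0.67 points became −0.14. None was at −0.5 or below (4.49% of all genes) or at −1 or below (0.469%). At 1 week 65 of 79 were lower (45.4%), with a median of −0.38, 31 at −0.5 or below (9.54%) and 11 at −1 or below (2.57%). Over 5 bins of depth from 2000 UMIs upward, the share in hair follicle-like cells differed by −1.46, −0.90, 0.83, −0.81 and −0.96 points at 1 day, so that it was higher in ablated cells of 5000 to 8000 UMIs. At 1 week the bins differed by −6.67, −5.51, −3.49, −2.26 and −2.58 points. Medians in the other classes at 1 day were −0.09 in basal-like, −0.39 in suprabasal-like, −0.02 in granular-like, −0.28 in sebaceous-like, −0.10 in cycling and −0.12 in Langerhans or dendritic-like cells. At 1 week they were −0.65 in suprabasal-like, −0.73 in granular-like, −0.82 in sebaceous-like, −0.14 in cycling, −0.36 in Langerhans or dendritic-like, −0.16 in T cell-like and −0.37 in fibroblast-like cells. These medians mix clusters in the same way as the class shares.

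Cell types also differed from keratinocytes in single members within the control libraries. In the 1-week control Rps19 was at 1429 CPM in Langerhans or dendritic-like, 1500 CPM in T cell-like and 1678 CPM in fibroblast-like cells, against 3237 CPM in keratinocytes. Rpl10, by contrast, was at 3507, 3212 and 3484 CPM in those 3 types and at 3100 CPM in keratinocytes. The median member was lower than in keratinocytes by log2 −0.55 in Langerhans or dendritic-like, −0.47 in T cell-like and −0.49 in fibroblast-like cells. In the 1-day control Rpl10 was at 2004 CPM in Langerhans or dendritic-like cells and 1846 CPM in keratinocytes, and Rpl10a at 1183 and 2453 CPM.

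Other genes of the translation machinery were mostly lower in the summed keratinocytes at 1 day, where 49.4% of all genes were lower. The majority that was lower was smaller at 1 week, where 43.1% of all genes were lower. Of 17 genes for elongation factors and other 5′ TOP messenger RNAs, 16 were lower in 1-day ablated keratinocytes (median −0.31) and 9 at 1 week (median −0.04). Eef1b2, an exchange factor of elongation, was at 1731 and 1265 CPM at 1 day (−0.45), then 1303 and 1169 CPM at 1 week (−0.16), and Pabpc1, the poly(A)-binding protein, was at 754 and 835 CPM at 1 day (0.15). Of 40 ribosome biogenesis genes, 37 were lower at 1 day (median −0.36, 9 at −0.5 or below, against 9.17% of all genes) and 22 at 1 week (median −0.05). Gnl3, a nucleolar GTPase known as nucleostemin, was at 210 and 139 CPM at 1 day (−0.59), then 93.7 and 52.7 CPM at 1 week (−0.83). Polr1b, a subunit of the polymerase that makes ribosomal RNA, was at −0.68 at 1 day and 0.31 at 1 week. Hair follicle-like cells differed less at 1 day, with medians of −0.07 for both lists. At 1 week their medians were 0.14 for both, with 12 of the 17 and 26 of the 40 genes higher, against 54.6% of all genes.

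Ribosomal proteins of the mitochondrion, which translate the mitochondrial genome, were mostly higher in the summed keratinocytes at 1 week. Of 78 such genes 51 were lower at 1 day (median −0.08), where 49.4% of all genes were lower. At 1 week 11 were lower (median 0.32), where 43.1% of all genes were lower. In hair follicle-like cells the medians were 0.06 at both times, with 48 and 50 of the 78 genes higher, near the 52.3% and 54.6% of all genes. Mrpl52 (363 coding bases) was at 142 and 78.6 CPM at 1 week (−0.85). The shorter Mrpl34 (276 bases) was at 19.1 and 35.3 CPM (0.88), so 2 short genes of this list lay at its opposite ends. Their Spearman correlation with coding length at 1 week was 0.32 over 78 genes. In a list of 18 growth control genes the medians were −0.09 and −0.03. Its highest member, Mxd1, which opposes MYC and marks differentiating cells, was at 84.1 and 269 CPM at 1 day (1.68), then at 55.6 and 157 CPM at 1 week (1.50).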

How the data were processed

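Whole-number UMI counts per gene and barcode were used as deposited. Per the file headers they come from Cell Ranger 5.0.1. The submitters' processing notes also name Seurat and mm10. The deposited barcode and feature lists carry names only. A barcode was kept from 2000 UMIs and 300 genes, with a mitochondrial share of up to 15%. Doublets were scored with Scrublet, and the top 0.8% per 1000 barcodes were removed (14.7 to 26.8% per library). The cells kept (18566 and 19341 at 1 day, 8457 and 5185 at 1 week, control and ablated) were clustered per time point on 2000 variable genes without ribosomal protein, mitochondrial or listed genes (30 components, 15 neighbours, Leiden resolution 1, scanpy 1.11.5, leidenalg 0.10.2). Classes were named from marker lists, with limits set after seeing the data. UMIs were summed per class and library. Shares carry exact binomial intervals and ratios exact conditional binomial intervals, at 95%. A gene had a ratio with at least 50 UMIs over both libraries. TMM scaling used edgeR 4.0.16. Scripts were tested on simulated data.

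Members named are the 8 with the highest CPM, the 6 highest and 6 lowest ratios in keratinocytes at each time, the paralogues with their parents, the 2 highest and 2 lowest members per cell type in the control, and the highest and lowest gene of each other list. Single values of 2 small subunit members are not reported here and are left out of the plot of members, though all counts and medians include them. Members and lists were chosen with earlier results of these data known. Coding lengths come from GENCODE M21, where all 82 members were found.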

Additional observations from a re-analysis of the deposited data

Results flagged for a closer look

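4 members had ratios of opposite sign at 1 day and 1 week in keratinocytes, and the difference between the time points was not tested because each group was 1 library and the kits differed. Rps27l, which p53 can induce, was at 0.23 at 1 day and −0.40 at 1 week on the log2 scale. Rps2 was at −0.43 and 0.17, Rpl29 at 0.13 and −0.12, and Rpl7l1 at −0.13 and 0.10. 

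Both 1-day matrices carry antibody features named as hashtags, which no comparison above used and whose meaning the labels do not give. The UMIs of each hashtag were divided by its median over the keratinocytes of the library. Keratinocytes were taken in which 1 hashtag was then at least 3 times the next. Their ribosomal protein share in the control library was 22.8% (hashtag 1, 1937 cells), 21.4% (hashtag 2, 1539 cells) and 20.9% (hashtag 3, 1412 cells). In the ablated library it was 17.5% (724 cells), 15.9% (755 cells) and 19.0% (573 cells). The 3 control values lay above the 3 ablated values. In 13189 control and 11804 ablated keratinocytes no hashtag stood out by that ratio, and the labels do not say that a hashtag marks an animal.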

How the results depend on the processing

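No paired analysis was possible because each group was 1 library, and for the same reason no replicate could be left out. The keratinocyte share difference and the median log2 ratio kept their sign under all 12 alternatives at 1 day and all 13 at 1 week. The 1-day share difference of −5.08 points was −5.25 without mitochondrial UMIs, −5.54 from 4000 UMIs, −5.20 at an 8% mitochondrial limit, −5.36 with Krt8-led clusters, −5.28 over all barcodes of at least 2000 UMIs, −5.13 with doublets kept, −5.14 as a mean over cells, −4.90 without the member with the most UMIs, −3.35 with control class weights, −1.71 with control cluster weights and −4.70 without granular-like clusters. The last 2 were chosen after seeing the data. The 1-week difference of −5.09 points was, in the same order and without the settings that moved it little, −5.13 without mitochondrial UMIs, −4.95 from 4000 UMIs, −4.99 and −4.88 over all barcodes of at least 2000 and 500 UMIs, −4.99 with doublets, −5.52 over cells, −4.96 without the top member, −3.78 and −2.91 with class and cluster weights −4.46 without granular-like clusters and −4.40 without a Krt8-led cluster (also chosen after seeing the data).

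The 1-day median of −0.36 was −0.39 from 4000 UMIs, −0.38 with Krt8-led clusters or over all barcodes of at least 2000 UMIs, −0.37 at the 8% limit, over all barcodes of at least 500 UMIs or with doublets, −0.41 under TMM scaling, −0.45 relative to UMIs outside the members and −0.12 with cluster weights. The 1-week median of −0.54 was −0.64 under TMM, −0.63 relative to other UMIs and −0.57 without paralogues and other members. It was −0.46 without that Krt8-led cluster and −0.32 with cluster weights, which at 1 week cover no basal-like, suprabasal-like or granular-like cluster. The 2 members at −0.5 or below at 1 day became 10 from 4000 UMIs, 5 with Krt8-led clusters, 4 over all barcodes of at least 2000 UMIs, 12 under TMM and 22 relative to other UMIs. The count at −1 or below was 0 and became 1 over barcodes of at least 500 UMIs. The 1-week counts of 42 and 13 stayed within 40 to 47 and 11 to 16. Of 495 values for named members, 9 changed sign, all at 1 week for Rpl10a, Rpl7a and Rps6, whose ratios lie near 0. By class, under the 4000 UMI, mitochondrial UMI and 8% settings, the 1-day difference in points ranged from −0.66 to −0.14 in hair follicle-like cells (main −0.67), −1.25 to −0.49 in granular-like (−0.56), −2.29 to −0.91 in Langerhans or dendritic-like (−1.14) and −6.78 to −4.11 in sebaceous-like cells (−4.62), and at 1 week from −0.99 to 0.49 in T cell-like cells (−0.91). From 4000 UMIs the hair follicle-like median at 1 day was 0.00, 8 of 9 classes had a median below 0 at 1 day, and 10 of 11 had a lower share at 1 week. The cause of these changes was not tested.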
